A study of Mus musculus with 14 samples.

Results

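Tet1, Tet2, Tet3, Tdg and Dppa3 were followed through the RNA of 14 single mouse embryos made by somatic cell nuclear transfer (SCNT), in which the nucleus of a cumulus cell, the cell that surrounds the egg, is placed into an enucleated oocyte. These 5 genes were chosen by name, as genes that act in or around the removal of DNA methylation, out of 20242 gene symbols in the data. All embryos were of the B6D2F1 strain and had reached the two-cell stage. The labels give the time of collection as 28 h from nuclear transfer, and the methods of the study as 28 h from egg activation. The 6 groups were 3 control SCNT embryos, 1 embryo given VC(0-8h), 2 given VC(8-15h), 3 given TSA(0-8h), 2 given TSA(0-8h)+VC(0-8h) and 3 given TSA(0-8h)+VC(8-15h). TSA is trichostatin A, an inhibitor of histone deacetylases, used at 50 nM for the first 8 h from the start of activation. VC is vitamin C, used at 10 µg/ml from 0 to 8 h or from 8 to 15 h. All groups share the activation in strontium chloride with cytochalasin B.

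TET enzymes oxidise 5-methylcytosine in steps to 5-hydroxymethylcytosine, 5-formylcytosine and 5-carboxylcytosine. They need iron and 2-oxoglutarate, and vitamin C is known to raise their activity. Tet3 is the TET enzyme of the oocyte and zygote, while Tet1 and Tet2 are best known from embryonic stem cells. Tdg is the glycosylase that cuts out formylcytosine and carboxylcytosine so that base excision repair can put back an unmodified cytosine. Dppa3, also called Stella or PGC7, is a maternal protein that shields methylated DNA in the zygote from TET3. The question put to the data is how much RNA of these genes each embryo held and whether it differed with TSA or VC. RNA levels say nothing of enzyme activity, and each library holds both RNA left from the oocyte and RNA made from the transferred nucleus, which cannot be told apart here.

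The 3 Tet genes are related but separate in sequence. Their shared catalytic centre is shown here because it is the part that uses iron, and because it shows how far short reads can keep the genes apart. Each line gives the coding strand, 5′ to 3′, with the codons of the histidine and the aspartate of the iron-binding His-X-Asp motif in capitals.

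Tet1: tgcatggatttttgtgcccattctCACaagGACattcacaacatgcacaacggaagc

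Tet2: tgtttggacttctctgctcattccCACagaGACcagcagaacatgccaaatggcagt

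Tet3: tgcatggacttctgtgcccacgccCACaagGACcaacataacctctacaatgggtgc

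These stretches of 57 bases lie in mm9 at chr10:62277190-62277246 (exon 11 of 13 of Tet1), chr3:133134310-133134366 (exon 9 of 11 of Tet2) and chr6:83323194-83323250 (exon 9 of 11 of Tet3), all on the minus strand. Tet1 and Tet3 had 42 of the 57 bases in common (73.7%), and Tet2 had 39 in common with each of them (68.4%). The longest run of identical bases was 9. Over the whole transcripts, no word of 50 bases, the length of a sequencing read, was shared between any of the 3 Tet genes.

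Parts of Tdg and Dppa3, in contrast, are found again elsewhere in the genome. A coding word of 50 bases is shown for each gene because it occurs at every one of the named positions without a mismatch. A read with this sequence could be placed at the gene or at any of these copies. The whole word is the repeated part, so it carries no capitals.

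Tdg: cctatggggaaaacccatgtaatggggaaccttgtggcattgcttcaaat

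Dppa3: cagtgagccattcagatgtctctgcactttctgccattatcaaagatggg

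The Tdg word covers bases 1067 to 1116 of the coding sequence of transcript Tdg-002. It was found again at chr7:83389782-83389831, chr10:41774069-41774118, chr15:82347908-82347957 and chr19:33747968-33748017 (mm9). The Dppa3 word covers bases 369 to 418 of its coding sequence, and it was found again at chr13:94497350-94497399, chr14:31211545-31211594 and chrX:35040189-35040238. Of all words of 50 bases of the transcript, 93.8% were found elsewhere for Tdg-001 and 79.0% for Tdg-002, against 25.1% for Dppa3. For the Tet genes the share was 0.161% (Tet1), 0.635% (Tet2) and 0.0921% (Tet3). This count of repeated words was made after the levels of Tdg had been seen. How reads with several positions were counted is not given in the sources used here.

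**Figure D1:**
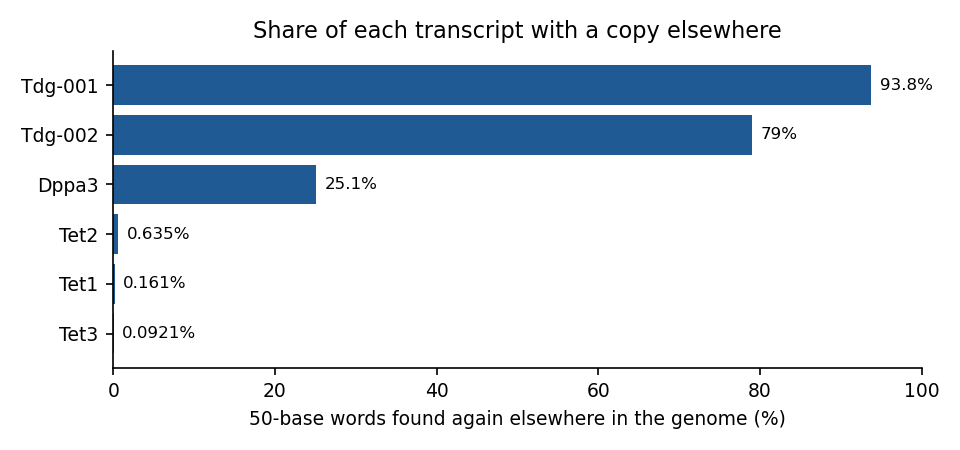
Share of the 50-base words of each transcript that occur at another position of mm9, in percent (bars, from 0 to 100). Both Tdg transcripts stand at 79.0% or more and Dppa3 at 25.1%, while the 3 Tet genes stay under 1%.

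Expression is given as RPKM, which divides reads by the length of the transcript and by the size of the library. This scaling does not remove differences in capture or PCR amplification between genes or libraries. Levels of different genes and embryos are set side by side here with that limit. Between 3021540 and 13589389 reads were counted per embryo, and 3130 to 6231 genes reached 1 RPKM. By their identifiers the libraries fell into 3 sets of 5, 6 and 3 embryos, which are called pools here. The labels do not say what a set shares. Its number was the replicate number for all embryos except the VC(0-8h) embryo, which was in pool 2. Pool and anything else that same-numbered embryos share can therefore not be told apart. The day of nuclear transfer is not given in the sources used here. Of 12 oocyte and maternal markers, all were above 1 RPKM in at least 1 embryo, with a summed level of 278 to 1132 RPKM. Khdc3 reached 1 RPKM in only 1 embryo, Zar1 in 2 and Ooep in 3. Bmp15 did so in all 14 and alone was at 91.3 to 520 RPKM. The 10 two-cell embryo markers summed to 5.19 to 1173 RPKM. Among them, Zscan4c, Zscan4f and Usp17la reached 1 RPKM in 3 embryos each and Zscan4d in 4, while Tcstv1 did so in 13. The 12 cumulus and granulosa markers summed to 0.0759 to 144 RPKM. The highest sums were nearly all Amhr2, a receptor gene of granulosa cells, which reached 1 RPKM in 7 embryos. The other 11 did not pass 1.82 RPKM in any embryo, and Inha and Fshr were at 0 in all 14. A level is a share of an embryo's RNA, so more RNA of a gene and less RNA of all other genes cannot be told apart.

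Tet3 (NM_183138, chr6:83312367-83391672, minus strand, 11 exons) was the TET gene with the most RNA in every embryo. It was at 103, 37.1 and 163 RPKM in the 3 control embryos, numbered 1 to 3. It was at 34.6 RPKM in the VC(0-8h) embryo, 57.8 and 106 RPKM in VC(8-15h) embryos, and 2.79, 40.5 and 52.7 RPKM in TSA(0-8h) embryos. With both agents it was at 31.98 and 45.5 RPKM after TSA(0-8h)+VC(0-8h), and at 18.4, 82.5 and 42.0 RPKM after TSA(0-8h)+VC(8-15h). Of the 14 embryos, 13 thus lay above 10 RPKM, and TSA(0-8h) embryo 1 stood alone below. Its value of 2.79 RPKM rested on 92 reads, while the other libraries held more, up to 24118. This embryo also had the smallest library, with 3021540 reads counted.

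Tet1 (NM_001253857, chr10:62267318-62361866, minus strand, 13 exons) was present at a clear level in some embryos and nearly missing from others of the same group. In control embryos 1 to 3 it was at 0.0524, 0.259 and 28.7 RPKM, so that the lowest and the highest of all 14 embryos were both controls. It was at 13.3 RPKM in the VC(0-8h) embryo and at 5.37 and 10.6 RPKM in VC(8-15h) embryos. It was at 0.776, 0.0909 and 5.62 RPKM in TSA(0-8h) embryos. The 2 TSA(0-8h)+VC(0-8h) embryos were at 1.76 and 22.3 RPKM, and the TSA(0-8h)+VC(8-15h) embryos at 14.5, 0.183 and 13.6 RPKM. In all, 9 embryos were at 1 RPKM or more and 5 were below, and the values of the groups overlapped. The lowest value rested on 4 reads, where 3 reads correspond to 0.0393 RPKM in that library, so it was close to the limit of detection.

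Tet2 (NM_001040400, chr3:133126643-133207354, minus strand, 11 exons) was below Tet1 in 13 of 14 embryos. It was at 0.0201, 0.0793 and 2.33 RPKM in the control embryos, at 0.665 RPKM in the VC(0-8h) embryo and at 2.64 and 0.133 RPKM in VC(8-15h) embryos. It was at 0.0360, 1.06 and 0 RPKM in TSA(0-8h) embryos. It was at 0 and 0.158 RPKM after TSA(0-8h)+VC(0-8h), and at 0, 0.126 and 0.0177 RPKM after TSA(0-8h)+VC(8-15h). Only 3 of the 14 embryos reached 1 RPKM, each in a different group. All libraries together held 677 reads of Tet2, and 6 libraries held 3 reads or fewer. Taking 3 reads as the limit that a count of 0 allows, Tet2 could have been present at up to 0.0278, 0.0752 and 0.1002 RPKM in the 3 embryos where it was at 0. Such limits cover counting error only, because PCR copies of a molecule are counted as separate reads.

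Dppa3 (NM_139218, chr6:122576428-122580290, plus strand, 4 exons) had the widest range. It was at 1.80, 189.8 and 39.6 RPKM in the control embryos and at 97.3 RPKM in the VC(0-8h) embryo. It was at 319 and 146 RPKM in VC(8-15h) embryos, and at 776, 25.7 and 0.208 RPKM in TSA(0-8h) embryos. It was at 102 and 83.9 RPKM after TSA(0-8h)+VC(0-8h), and at 754, 352 and 18.02 RPKM after TSA(0-8h)+VC(8-15h). The highest and the lowest embryo of the series were both TSA(0-8h) embryos. The lowest value rested on 2 reads in a library of 11753807, and the highest on a library of 3021540. By its mean RPKM, Dppa3 stood at percentile 98.7 of all genes, against 92.9 for Tet3, 70.9 for Tet1 and 50.9 for Tet2. The part of its repeated words (25.1%) in these levels was not tested.

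Tdg (chr10:82092573-82113544, plus strand, 10 exons) has 2 entries in the data. One, NM_011561, was listed at 0 in all 14 embryos. The other, NM_172552, was listed at 0 in 13 embryos and at 0.777 RPKM in control embryo 3, the most deeply sequenced. The repeated share of this gene, 79.0% to 93.8% of its words, stands beside these zeros, and its 2 main transcripts have 2831 words of 50 bases in common (82.0% of those of Tdg-002 and 97.3% of those of Tdg-001). The part of either in the zeros was not tested. Zeros in all embryos were found for 26.5% of the 16709 genes with 1 entry and for 13.1% of the 2542 genes with 2 entries. A level of Tdg in these embryos was therefore not obtained, and its values enter no order of levels.

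**Figure D2:**
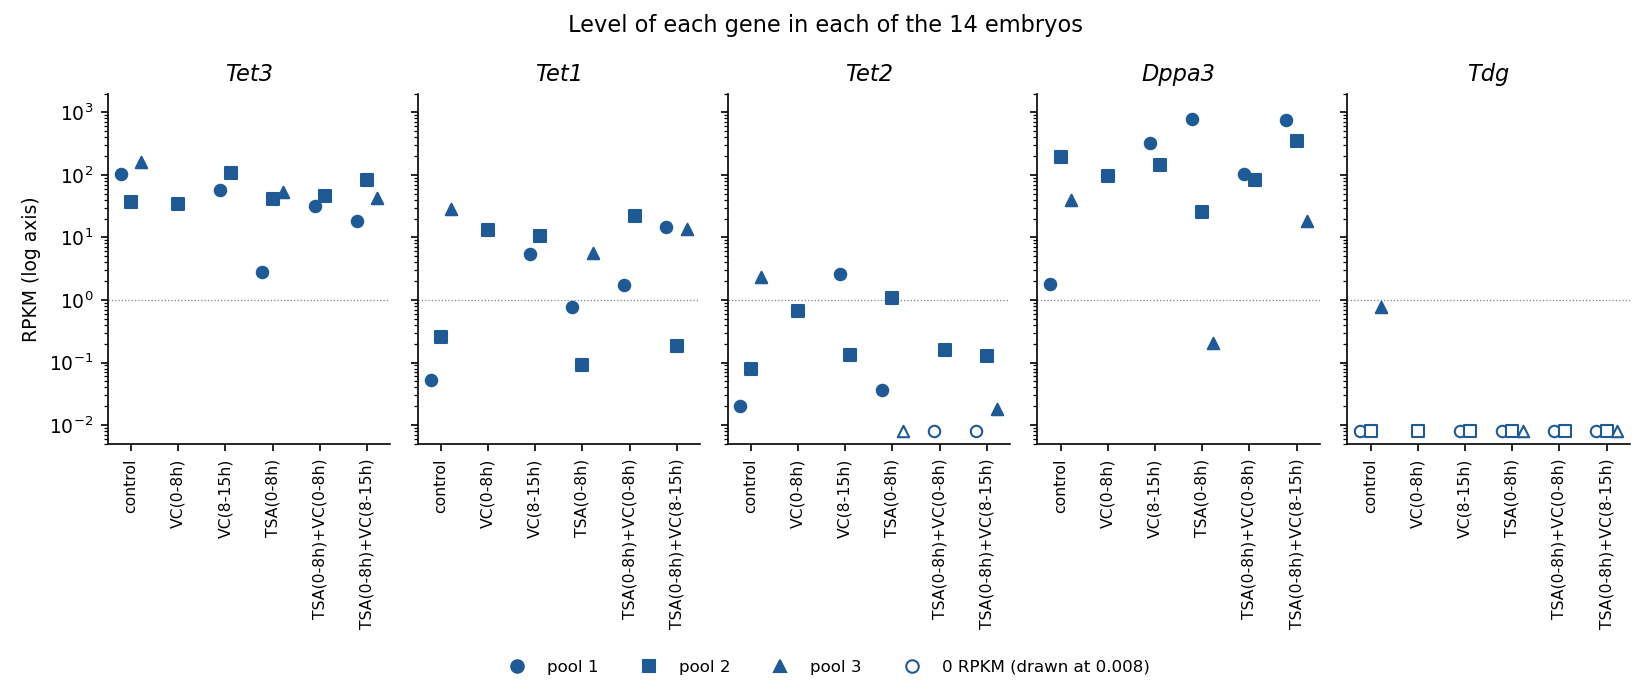
RPKM of each gene (log axis) in each of the 14 embryos, by group, with the pool as the symbol. Open symbols are embryos at 0, drawn at 0.008 RPKM. The dotted line marks 1 RPKM. Tet3 lies above 1 RPKM in all embryos, Tet1 on both sides of it, Tet2 mostly below, Dppa3 from 0.208 to 776 RPKM, and Tdg at 0 in 13 embryos.

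The TET genes kept nearly the same order within embryos, while Dppa3 and Tet3 did not. Tet3 exceeded Tet1 in 14 of 14 embryos, by 3.12 ± 2.00 (SD, n = 14) on the log2(RPKM+1) scale (exact sign-flip permutation test over embryos, two-sided p = 0.000122, adjusted p = 0.000366 over 3 neighbouring pairs). Tet1 exceeded Tet2 in 13 of 14 embryos, by 1.92 ± 1.75 (SD, n = 14; exact permutation test, p = 0.00195, adjusted p = 0.00293). Dppa3 exceeded Tet3 in 9 of 14 embryos, and these neighbours did not differ beyond their spread (difference 0.69 ± 3.56, SD, n = 14; exact permutation test, p = 0.481). The 3 pairs are neighbours in the order of levels seen in these same embryos. Their p-values therefore describe that order and give it no separate support. Tet1 and Tet2 were each on either side of 1 RPKM. Both reached 1 RPKM in 2 embryos, Tet1 alone in 7, Tet2 alone in 1 and neither in 4.

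Of Dppa3, Tet1 and Tet3, the genes at 1 RPKM or more in at least 6 embryos, Dppa3 differed most and Tet3 least between embryos of the same group. The standard deviation of log2(RPKM+1) within groups was 3.14 for Dppa3, 2.01 for Tet1 and 1.32 for Tet3. Over the 5032 genes with 1 RPKM in at least 6 embryos, its median was 2.23, with quartiles of 1.80 and 2.65. Dppa3 stood at percentile 92.6 of these genes and Tet3 at percentile 9.34. High spread was not rare among maternal genes, since the 9 oocyte and maternal markers in this set had a median of 2.78 and ranged from 0.80 to 4.14.

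**Figure D3:**
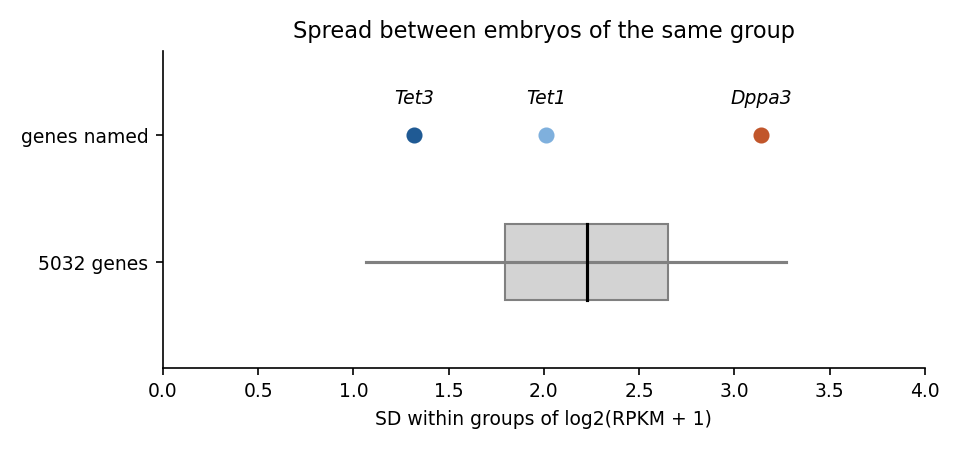
Standard deviation of log2(RPKM+1) within groups (horizontal axis). The box gives the quartiles and the median of 5032 genes, its line the percentiles 5 to 95. Tet3 at 1.32 lies below the box, Tet1 at 2.01 inside it and Dppa3 at 3.14 above it.

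Differences between treatments were tested with limma on log2(RPKM+1) over all genes that passed a filter on low values, with Benjamini-Hochberg adjustment and a threshold of 0.05 on the adjusted p. Differences on this scale understate the change of low genes. None of the 5 genes passed the threshold in any of the 6 comparisons, and in each of the 5 comparisons of 2 sets of embryos the values of every one of them overlapped. For Tdg this overlap was fixed by its zeros. The share of all genes tested whose values overlapped was not counted, so the overlap cannot be called particular to these 5 genes. Tet3 and Dppa3 passed the filter in all 6 comparisons, Tet1 in 3 and Tet2 in 1. Tdg passed in none.

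The first comparison asks what the sequential treatment changes. In TSA(0-8h)+VC(8-15h) embryos, Tet3 was at 5.36 ± 1.05 on the log2 scale against 6.44 ± 1.07 in control embryos (SD, n = 3 each), a difference of -1.07 (SE 1.16, limma adjusted p = 0.681). Dppa3 was at 7.42 ± 2.80 against 4.80 ± 3.08 (SD, n = 3 each), a difference of 2.62 (SE 1.56, limma adjusted p = 0.416). The difference of Dppa3 ranged from 0.97 (without control embryo 1) to 4.21 (without TSA(0-8h)+VC(8-15h) embryo 3) when single embryos were left out. The exact permutation test gave p = 0.3 for Tet3 and p = 0.4 for Dppa3, with 0.1 as the smallest p that 3 against 3 embryos allow. Tet1 differed by 0.92 and Tet2 by -0.56, without passing the filter (exact permutation test, p = 0.9 and p = 0.5). No gene of 3323 was called (0%), while 587 had an unadjusted limma p under 0.05 and limma-voom on recovered reads called 321. The median difference of all genes tested was 0.78.

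TSA alone was compared with no treatment next. Tet3 was at 4.35 ± 2.11 in TSA(0-8h) embryos (SD, n = 3), a difference from control of -2.09 (SE 1.67, limma adjusted p = 0.622, exact permutation p = 0.3). This difference was smallest, at -0.87, without TSA(0-8h) embryo 1, the embryo with 2.79 RPKM. Dppa3 was at 4.87 ± 4.67 (SD, n = 3), a difference of 0.07 (SE 2.16, limma adjusted p = 0.993) with a 95% interval from -4.35 to 4.48. This interval is too wide to show that Dppa3 was alike in both groups. Dppa3 passed the filter here only through the control embryos, and it did not pass with a minimum of 5 RPKM. No gene of 2490 was called (0%), 371 had an unadjusted limma p under 0.05, and limma-voom called 8.

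With VC(8-15h) added to TSA, Tet3 differed by 1.02 (SE 1.63, limma adjusted p = 0.797) and Dppa3 by 2.55 (SE 2.00, limma adjusted p = 0.558) from TSA alone, neither beyond the spread between embryos. Without TSA(0-8h) embryo 1 the difference of Tet3 was -0.20. That of Dppa3 was 4.92 without the same embryo and 0.26 without TSA(0-8h) embryo 3, and Dppa3 passed the filter here only through the TSA(0-8h)+VC(8-15h) embryos. The difference of all genes tested had a median of 1.20. Tet1, not tested by limma here, differed by 1.46 (exact permutation test, p = 0.3). No gene of 3140 was called (0%), 573 had an unadjusted limma p under 0.05, and limma-voom called 286. These 3 comparisons share embryos, so their values are not independent of each other.

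All 14 embryos were then used to compare TSA with no TSA, with the VC window as a covariate. Tet3 ranged from 2.79 to 82.5 RPKM (median 41.3) in the 8 embryos with TSA and from 34.6 to 163 RPKM (median 80.3) in the 6 without. The fitted difference was -1.24 (SE 1.01, limma adjusted p = 0.993), and the exact permutation test of the means gave p = 0.0553. Without TSA(0-8h) embryo 1, the embryo with 2.79 RPKM, the fitted difference was -0.68. Within pools 1 to 3 the difference of means, not adjusted for VC, was -2.54 (3 embryos with TSA against 2 without), 0.05 (3 against 3) and -1.77 (2 against 1). It was thus not seen in pool 2. Tet1 differed by -0.55 (SE 1.26, limma adjusted p = 0.999) and Dppa3 by -0.10 (SE 1.06, limma adjusted p = 0.999). No gene of 5032 was called (0%), 280 had an unadjusted limma p under 0.05, and limma-voom called 2.

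Vitamin C was compared in the same way, with TSA as a covariate, since the TET enzymes use it. Dppa3 ranged from 18.02 to 754 RPKM (median 124) in the 8 embryos with VC and from 0.208 to 776 RPKM (median 32.6) in the 6 without. None of the embryos with VC lay under 18.02 RPKM, while those without VC reached both ends of the range. The fitted difference was 2.37 (SE 1.05, 95% interval 0.26 to 4.48, limma adjusted p = 0.422). The unadjusted limma p was 0.0287 and the exact permutation test of the means gave p = 0.129, so the difference did not pass the adjustment. An unadjusted limma p under 0.05 was found for 511 of the 5032 genes tested (10.2%). Within pools 1 to 3 the difference of means, not adjusted for TSA, was 2.64 (3 embryos with VC against 2 without), 1.02 (4 against 2) and 1.44 (1 against 2). With the pool as a term the fitted difference was 1.68 (SE 1.05), with an unadjusted limma p of 0.115. The range over leaving out single embryos was 1.27 to 3.55.

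Tet1 had a median of 11.9 RPKM (0.183 to 22.3) with VC and 0.517 RPKM (0.0524 to 28.7) without. The fitted difference was 1.58 (SE 1.24, limma adjusted p = 0.702, exact permutation p = 0.120). Within the same pools, again not adjusted for TSA, the difference of means was 2.25, 2.81 and 0.06. Tet3 differed by 0.32 (SE 0.98, limma adjusted p = 0.951), and this turned to -0.46 under quantile normalization and to -0.33 with limma-voom. The median difference of all genes tested was 0.60, and 68.1% were positive, so higher values with VC were common among all genes. The summed level of the 10 two-cell embryo markers was mostly higher in embryos with VC, but its values overlapped and the difference was not tested. It was 5.19 to 191 RPKM in control and 13.2 to 150 RPKM in TSA(0-8h) embryos, against 148 RPKM in the VC(0-8h) embryo, 174 and 1173 RPKM in VC(8-15h), 195 and 445 RPKM in TSA(0-8h)+VC(0-8h), and 333 to 540 RPKM in TSA(0-8h)+VC(8-15h) embryos. Its part in the values of Dppa3 and Tet1 was not tested. Of 5032 genes 1 was called (0.0199%), and it was lower with VC and none of the 5 genes described here.

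Whether VC(8-15h) had the same difference with and without TSA was asked with an interaction term over the 11 embryos of the 4 groups concerned. The term was 0.12 for Tet1 (SE 3.12), 1.14 for Tet3 (SE 2.37), -0.40 for Dppa3 (SE 2.39) and -0.70 for Tet2 (SE 1.44). The limma adjusted p was 0.972 or more for each. No gene of 6620 was called (0%), 295 had an unadjusted limma p under 0.05, and limma-voom called 2. The early and late VC windows hold 3 and 5 embryos and were not compared by a test of their own.

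**Figure D4:**
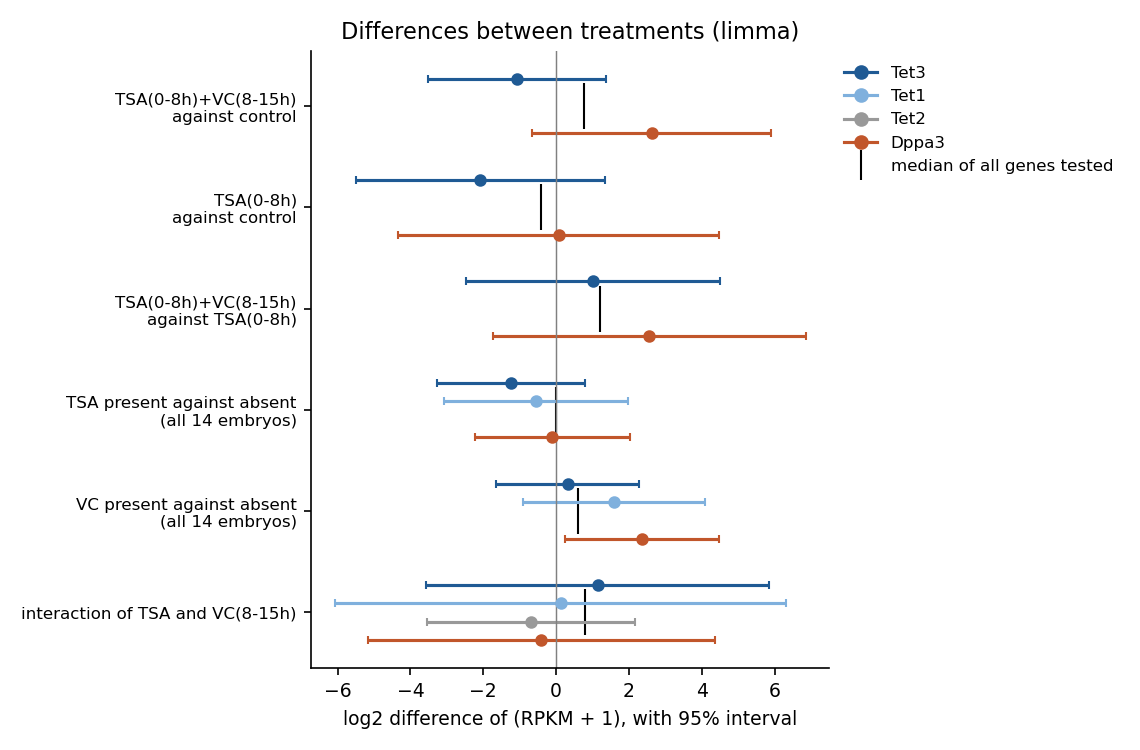
Difference in log2(RPKM+1) with its 95% interval (limma) for each gene that passed the filter, in 6 comparisons. Black bars mark the median difference of all genes tested. All intervals include 0 except that of Dppa3 for VC present against absent (0.26 to 4.48), whose adjusted p was 0.422 and whose difference was 1.68 (SE 1.05) with the pool as a term.

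The other genes of the pathway were described from a list of 39, of which 3 groups act with the TET enzymes or after them and 1 supplies 2-oxoglutarate. None of those tested (6 to 20 in a comparison) passed the threshold in any comparison. The only genes of the list at 1 RPKM or more in all 14 embryos were Ddb1, Dcaf1 and Cul4b, parts of the CRL4 ubiquitin ligase that modifies TET proteins. Ddb1 was at 82.2 to 411 RPKM, Dcaf1 at 11.7 to 114 RPKM and Cul4b at 3.32 to 1696 RPKM in the 14 embryos. Cul4a, the sister scaffold of Cul4b, reached 1 RPKM in 5 embryos only. Ogt, the glycosyltransferase that binds TET proteins, reached it in 7.

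The 15 genes listed for base excision repair were patchy. They include other glycosylases as well as genes that act after Tdg. Ung, a uracil glycosylase, reached 1 RPKM in 10 embryos with a median of 40.6 RPKM, and Parp1 in 10 with a median of 8.05 RPKM. Apex1, the endonuclease that cuts at the abasic site, reached it in 9 with a median of 26.3 RPKM. Neil1 and Neil2, glycosylases that can aid Tdg, were at 0 in all 14. Mbd4, the other glycosylase for T:G mismatches, reached 1 RPKM in 4 embryos. Among the deaminases and Gadd45 genes, Gadd45b had the highest median, 39.1 RPKM.

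The smallest adjusted p-values of this list came with VC(8-15h) added to TSA. Smug1, a uracil glycosylase, differed by 4.46 (SE 1.22, limma adjusted p = 0.0730), Apex1 by 5.48 (SE 1.62, limma adjusted p = 0.0805) and Ogt by 3.03 (SE 0.74, limma adjusted p = 0.0689). Smug1, Apex1 and Ogt were tested there only because all TSA(0-8h)+VC(8-15h) embryos were at 1 RPKM or more, so their positive sign was largely set by the filter. Against control, Cul4a, which passed only through the treated embryos, differed by 2.97 with TSA(0-8h)+VC(8-15h) (SE 1.06, limma adjusted p = 0.142), and Hmces, a protein that guards abasic sites and passed only through the control embryos, by -4.08 with TSA alone (SE 1.40, limma adjusted p = 0.152). Of the genes for 2-oxoglutarate metabolism, Idh3g, a subunit of the mitochondrial isocitrate dehydrogenase, reached 1 RPKM in 7 embryos, with a median of 3.24 RPKM.

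**Figure D5:**
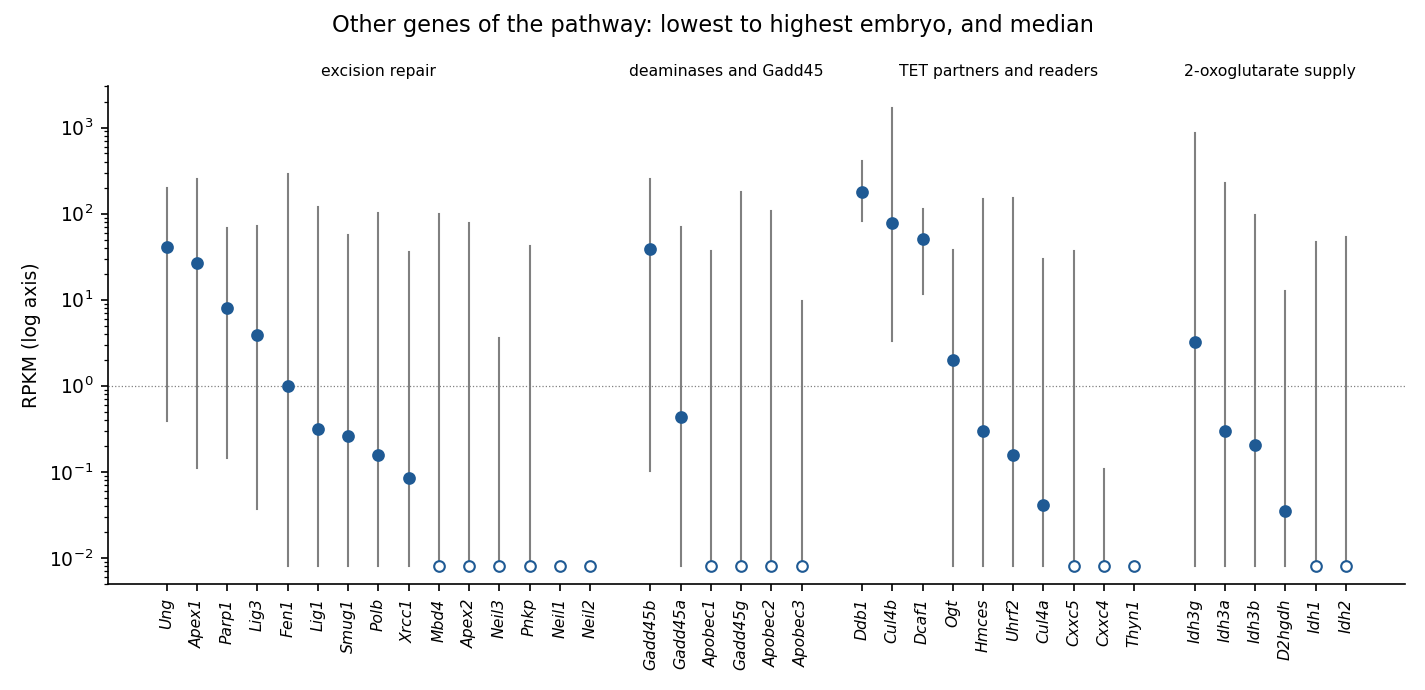
RPKM (log axis) of 37 other genes of the pathway over the 14 embryos: lines run from the lowest to the highest embryo and circles mark the median. Open circles are medians of 0, drawn at 0.008 RPKM, where lines also end for a lowest value of 0. Ddb1, Dcaf1 and Cul4b lie above 1 RPKM in all embryos, and Neil1, Neil2 and Thyn1 at 0 in all.

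Genes with the most similar pattern over the 14 embryos were sought by Pearson's r of log2(RPKM+1) among 4412 genes with 1 RPKM in at least 7 embryos. For Tet1 they were Nhlrc2 (r = 0.894), Nudt4 (r = 0.855) and Wdr75 (r = 0.853). For Tet3 they were an entry without a symbol, NM_001033491 (r = 0.821), the histone methyltransferase gene Dot1l (r = 0.787) and the RNA demethylase gene Alkbh5 (r = 0.766). For Dppa3 they were the poly(A) polymerase gene Papola (r = 0.813), Polr1e (r = 0.799) and Diablo (r = 0.740). These are the highest of many values over 14 embryos that share pools and treatments, and they are given as a description. Tet3 and Dppa3 had an r of -0.453 with each other, and with the log10 of the reads counted r was 0.610 for Tet3 and -0.420 for Dppa3.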

How the data were processed

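RNA of 14 single embryos was sequenced. From each, 2 µl of 9 µl of RNA were amplified (NuGEN Ovation, 14 and 12 PCR cycles) and read as 50-base single ends on the HiSeq2000. The authors trimmed reads and adaptors (Q20, cutadapt), mapped them to mm9 with TopHat (TopHat2 in the submitters' processing notes), counted reads on exons of the UCSC annotation and deposited RPKM values per RefSeq entry, scaled to total counts and transcript length. Groups and replicate numbers came from the labels, and pools from library identifiers. The study states that nuclear transfer for the TSA(0-8h)+VC(8-15h) embryos was done in separate experiments. For the other groups this is not given in the sources used here, and p-values measure the spread between these embryos.

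RPKM values were summed per gene symbol: 25250 of 25650 entries matched a RefSeq table for GRCm38.p6, used for names only. The number of reads was worked back from the size of 1 read in the RPKM values (at least 99.7% of reads per embryo). limma (version 3.58.1, R 4.3.3; lmFit, eBayes with a trend) was run on log2(RPKM+1), for genes at 1 RPKM or more in each of the 3 embryos of 1 group, in 6 of 14 embryos, or in 3 of 11 (interaction). It was tested on simulated data. The study tested counts. Single genes were compared with two-sided exact permutation tests. The limma-voom fits on recovered reads were chosen after seeing the data.

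Coordinates and sequences came from the NCBIM37 genome (mm9) with GENCODE vM1. Words of 50 bases of each transcript were searched on both strands. Named genes were the 5 genes, the 2 pathway genes with the smallest p of each list and comparison (the text gives part of these; pathway genes described by level alone were chosen after their values were seen), and the 3 genes most alike in pattern. Of the 39 pathway genes, 2 are not reported here by name. The genes and lists were chosen with earlier results of these data known. Alternatives were a pseudocount of 0.1, no filter, a minimum of 5 RPKM, a filter blind to the groups, quantile normalization, single entries, the replicate block, the pool as a term, 1 fit of all 14 embryos, and leaving out each embryo. Python 3.11.15 was used for other steps.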

Additional observations from a re-analysis of the deposited data

Results flagged for a closer look

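In the sets of 6 or 8 embryos with or without an agent, 5 of 18 tests for a sample far from the others were positive. By chance about 1 in 20 such tests is positive, but the sets overlap and the 2 positive tests of Tdg were fixed by its zeros, so the numbers cannot be set against each other. Among embryos with TSA, Tet3 was far below the others in TSA(0-8h) embryo 1 (2.79 RPKM) and Tet2 far above them in TSA(0-8h) embryo 2 (1.06 RPKM). Among embryos with VC, Tet2 was far above the others in VC(8-15h) embryo 1 (2.64 RPKM). Tdg was above 0 in control embryo 3 alone (0.777 RPKM), which is the same value in the embryos without TSA and in those without VC, all others being at 0.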

How the results depend on the processing

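None of the 5 genes passed the threshold under any alternative. Their smallest limma adjusted p was 0.416 as reported and 0.194 over the alternatives. Of 507 values under alternatives, 462 kept their direction, or for untested genes moved by less than 1 SD. A further 36 values of tested genes turned sign, and 9 untested values moved by more. Untested values that turned sign within 1 SD are among the 462. An example is Tet1 for TSA(0-8h) against control, at -0.54 as reported and 1.02 without control embryo 3. The cause of these changes was not tested. The numbers of called genes moved far more. In the comparisons of TSA(0-8h)+VC(8-15h) with control, of TSA(0-8h) with control and of TSA(0-8h)+VC(8-15h) with TSA(0-8h), 0 genes each were called as reported, but 107, 100 and 172 with a pseudocount of 0.1, 184, 107 and 214 with a minimum of 5 RPKM, and 321, 8 and 286 with limma-voom on recovered reads. Single RefSeq entries gave 1 and 3 calls in the first 2, 1 fit of all 14 embryos 1 and 4, and the second had 2 with quantile normalization and 5 with a filter blind to the groups. With the replicate block there were 7, 5 and 153.

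In the comparisons of 3 with 3 embryos, same-numbered embryos shared a pool. Their deviations correlated by -0.048 to 0.051 over genes, which does not exclude pairing for single genes. For TSA(0-8h)+VC(8-15h) against control, the replicate block lowered the SE of Dppa3 from 1.56 to 1.31. It raised that of Tet3 from 1.16 to 1.36. For TSA present against absent, 1 gene was called with a pseudocount of 0.1, 2 with single entries, 1 with the replicate block and 2 with limma-voom. For VC present against absent, 1 was called as reported, 2 with a pseudocount of 0.1, 4 with no filter, 2 with single entries, 3 with limma-voom, and 0 with a minimum of 5 RPKM, quantile normalization, the replicate block or the pool as a term. The interaction had 2 with limma-voom.

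With a pseudocount of 0.1, Tet2 moved to -1.43 (TSA(0-8h)+VC(8-15h) against control), -0.86 (against TSA(0-8h)) and -1.60 (TSA present), and Tdg to -1.04 in both comparisons with control, -0.47 (TSA present), -0.46 (VC present) and 1.04 (interaction). Under quantile normalization, Tet2 moved to -1.01 (TSA(0-8h)+VC(8-15h) against TSA(0-8h)). Dppa3 turned to -0.41 with a pseudocount of 0.1 and to -0.020 with limma-voom for TSA(0-8h) against control. For TSA present it turned to 0.34 with the replicate block and 0.29 with the pool as a term. Tet3 turned to -0.46 with quantile normalization and -0.33 with limma-voom for VC present. In the interaction, Tet1 turned to -0.75 (pseudocount of 0.1), -1.26 (quantile normalization), -0.84 (replicate block, and likewise the pool as a term) and -0.79 (limma-voom), and Dppa3 to 0.054 (pseudocount of 0.1), 0.80 (replicate block, and likewise the pool) and 0.099 (limma-voom).

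Leaving out single embryos moved Dppa3 from -2.30 to 2.37 (TSA(0-8h) against control) and from -1.05 to 0.78 (TSA present), Tet3 from -0.20 to 1.71 (TSA(0-8h)+VC(8-15h) against TSA(0-8h)) and from -0.37 to 0.58 (VC present), and Tet1 from -0.88 to 0.059 (TSA present). For the interaction the ranges were -1.44 to 1.35 (Tet1), -1.54 to 0.15 (Tet2), -0.073 to 1.84 (Tet3) and -2.70 to 1.96 (Dppa3). Called genes ranged from 0 to 72, 0 to 276 and 0 to 298 in the 3 comparisons of 3 with 3 embryos, 0 to 2 (TSA present), 0 to 4 (VC present) and 0 to 1 (interaction). The 72 and 276 were found without control embryo 2, while the comparison with TSA alone had 203, 298 and 282 when TSA(0-8h)+VC(8-15h) embryo 1, 2 or 3 was left out. With at most 3 reads of Tet2 in 6 libraries and of Dppa3 in 1, such low levels are not resolved.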
